A study of Mus musculus with 8 samples.

Results

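The 9 genes described here encode enzymes that turn squalene into cholesterol: Sqle, Lss, Cyp51, Tm7sf2, Msmo1, Nsdhl, Ebp, Sc5d and Dhcr7. They were taken by gene name from the deposited table of raw counts, which lists 56748 genes, and all 9 were among the 14279 genes with enough counts to be tested. The counts came from RNA sequencing of mouse hepatocytes in primary culture, kept for 24 h on collagen-coated hydrogels of 1 kPa (soft) or 20 kPa (stiff). Every mouse was Yap fl/fl; Taz fl/fl on a C57BL/6J background and 7 to 8 weeks old when injected with virus, and hepatocytes were isolated 10 days later. Knockout mice (Yap/TazHepKO, KO) received AAV8-TBG-Cre, in which the hepatocyte promoter TBG drives Cre, and control mice received AAV8-TBG-Null. The controls are labelled wild type (WT) although they carry the same floxed alleles, and the study's methods mention a ROSA26-LSL-tdTomato reporter in the same breeding. Each of the 4 groups (WT soft, WT stiff, KO soft and KO stiff) had 2 libraries. The sources do not say whether these came from separate mice or cultures, so the p-values measure only the spread between these samples, which may be technical. The design asks how hepatocyte transcripts differ between the soft and the stiff hydrogel and whether that difference depends on Yap and Taz.

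Library totals lay between 18324083 and 26442310 counts. Levels are given as normalized CPM, that is, counts divided by the library's total after scaling by the trimmed mean of M-values (TMM) and brought to a common total. Counts of Yap1 were 1720 to 2913 in the WT libraries and 606 to 747 in the KO libraries, and those of Wwtr1, which encodes Taz, were 748 to 1325 and 277 to 410. The targeted transcripts were thus lower in every KO library than in every WT library, but not absent. The sources disagree on the sex of the mice, as the series description says female and the sample labels say male. Xist was present at 235 to 350.0 CPM in all 8 libraries, and the Y-linked genes Ddx3y, Uty, Kdm5d and Eif2s3y had 0 counts in all of them. This is the pattern of female cells in every library. By these counts sex did not differ between the groups compared, also for Nsdhl and Ebp, which are on chromosome X.

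Cholesterol is built from acetyl-CoA in the cytosol and the endoplasmic reticulum, and the liver is a major site of its synthesis. The mevalonate pathway leads to squalene, which is then oxidized, closed into the first sterol, lanosterol, and trimmed of methyl groups before its double bonds are rearranged and reduced. Transcription of these enzymes is classically driven by SREBP2, a membrane-bound factor that is released when sterols in the endoplasmic reticulum run low, and that acts at promoters together with NF-Y and Sp1.

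The steps were taken in pathway order, with gene positions as the deposited table gives them. Sqle (ENSMUSG00000022351, chromosome 15, 59186926 to 59203041, plus strand) encodes squalene epoxidase, which adds the first oxygen and is a control point of the pathway. Lss (ENSMUSG00000033105, chromosome 10, 76367422 to 76392972, plus strand) encodes lanosterol synthase, which closes the rings. Cyp51 (ENSMUSG00000001467, chromosome 5, 4131145 to 4154746, minus strand) encodes the cytochrome P450 that demethylates lanosterol. Tm7sf2 (ENSMUSG00000024799, chromosome 19, 6112851 to 6118403, minus strand) encodes a sterol reductase that acts on the product of Cyp51, a step it shares with Lbr. Msmo1 (ENSMUSG00000031604, chromosome 8, 65171173 to 65186826, minus strand) encodes the oxidase that starts removal of the remaining pair of methyl groups. Nsdhl (ENSMUSG00000031349, chromosome X, 71962163 to 72002120, plus strand) encodes the dehydrogenase that removes the resulting carboxyl group. Ebp (ENSMUSG00000031168, chromosome X, 8051568 to 8059751, minus strand) encodes the isomerase that moves a ring double bond. Sc5d (ENSMUSG00000032018, chromosome 9, 42162891 to 42175552, minus strand) encodes the desaturase that forms the ring diene. Dhcr7 (ENSMUSG00000058454, chromosome 7, 143376882 to 143402147, plus strand) encodes the reductase that removes a double bond of that diene, and its substrate is also the precursor of vitamin D. None of the 38 pathway genes of this report had the same position in the GENCODE M21 reference on GRCm38, so the build of these positions was not settled.

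Compared per kilobase of the deposited gene length, Sc5d and Cyp51 were the most abundant of the 9 transcripts and Lss the least abundant in every group. In WT soft, the level per kilobase ran from 59.1 ± 1.66 CPM for Sc5d (SD, n = 2) and 52.0 ± 2.14 for Cyp51 down to 4.09 ± 0.430 for Lss. Ebp (32.4), Msmo1 (26.4), Dhcr7 (25.2), Sqle (24.5), Nsdhl (22.7) and Tm7sf2 (19.8) lay between them. Only Dhcr7 and Sqle, neighbours in that order, had overlapping libraries. On the stiff hydrogel the WT order changed: Cyp51 stood first at 84.7 ± 1.24 CPM per kilobase, Sc5d second at 48.1 ± 0.811 and Nsdhl the third at 39.9 ± 0.252, while Dhcr7 moved to the eighth place at 19.7 ± 0.207. No neighbours overlapped in WT stiff. In both KO groups the order of the middle places was the same, and the libraries overlapped between Sc5d and Cyp51 at the top and between Tm7sf2 and Nsdhl below. The deposited length of Lss, 10787 bases, is longer than its longest reference transcript of 6992 bases, which lowers its value per kilobase. The same holds for Msmo1 (6144 against 2969 bases) and Dhcr7 (5817 against 2815), but hardly for Sc5d (4866 against 4787). The order of the genes within a group, including its top places, therefore holds for the deposited lengths only.

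**Figure D1:**
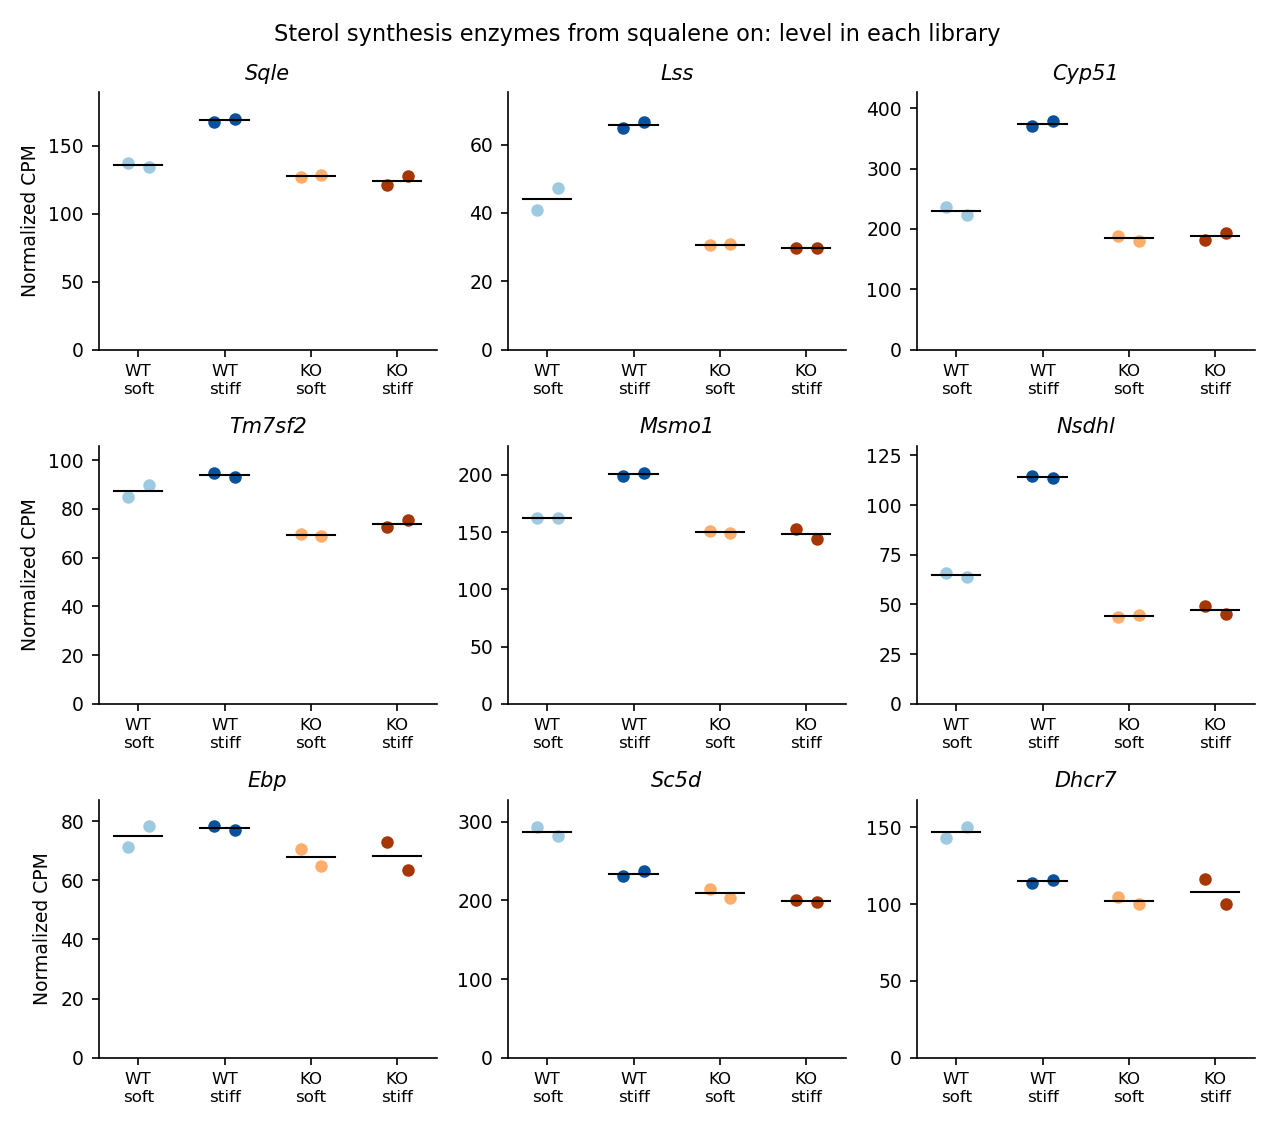
Normalized CPM (y axis, from 0, its own scale in each panel) of each of the 9 enzymes in the 8 libraries; points are libraries and horizontal lines are group means. WT stiff stands above the other groups for Cyp51 and Nsdhl, whereas WT soft is the highest group for Sc5d and Dhcr7.

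In WT hepatocytes, transcripts of 3 enzymes rose on the stiff hydrogel: Nsdhl by 1.76-fold, Cyp51 by 1.63-fold and Lss by 1.497-fold. Sqle and Msmo1 were higher by 1.24-fold and 1.23-fold, Tm7sf2 and Ebp differed little, and the late enzymes Sc5d and Dhcr7 were lower. A gene was called changed where edgeR's quasi-likelihood test gave a Benjamini-Hochberg adjusted p under 0.05 over all tested genes and its log2 fold change exceeded 0.5 in size. The 3 called members, all higher, compare with 19.3% of all tested genes called in either direction and 10.0% called higher. With the adjusted p alone, 5 members were higher and 2 lower, against 21.1% and 20.0% of tested genes and 41.0% in either direction. The median log2 fold change was 0.30 over the members and -0.0087 over all tested genes.

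Nsdhl had 65.8 and 63.8 CPM in the WT soft libraries and 114 and 113 CPM in the WT stiff libraries. The stiff libraries were far above the soft ones, as groups without overlap were in 68.9% of all tested genes, with a log2 fold change of 0.81 ± 0.057 (SE, edgeR adjusted p = 1.63e-09). Cyp51 measured 236 and 223 CPM on soft and 370.2 and 378 CPM on stiff, again without overlap, for a log2 fold change of 0.70 ± 0.046 (edgeR adjusted p = 6.83e-10). Reads of Cyp51 could be mixed with those of Akap9, which overlaps it on the other strand, since the strand setting used in counting is not given in the sources used here. Akap9 had a mean of 1179 counts per library and the opposite sign, with a log2 fold change of -0.48 ± 0.060 (edgeR adjusted p = 3.43e-06). Lss measured 40.9 and 47.4 CPM on soft and 64.9 and 66.7 CPM on stiff, and its soft libraries were the further apart. Its log2 fold change was 0.58 ± 0.069 (edgeR adjusted p = 2.01e-06), and without WT soft replicate 1 it was 0.48 and no longer past the fold threshold.

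Sqle, the control point at the entry, measured 137 and 135 CPM on soft and 167 and 170 CPM on stiff. Its log2 fold change of 0.31 ± 0.047 (edgeR adjusted p = 3.54e-05) did not reach the fold threshold. Msmo1 behaved much alike, at 162.3 and 162.4 CPM on soft against 199 and 202 CPM on stiff, for a log2 fold change of 0.30 ± 0.046 (edgeR adjusted p = 3.19e-05). In neither gene did the groups overlap. Tm7sf2 measured 84.7 and 89.7 CPM on soft and 94.9 and 93.0 CPM on stiff, and Ebp 71.1 and 78.4 CPM on soft and 78.2 and 77.1 CPM on stiff. The log2 fold changes, 0.11 (95% interval -0.0017 to 0.22, edgeR adjusted p = 0.11) and 0.06 (-0.089 to 0.20, edgeR adjusted p = 0.552), did not pass the test, and the Ebp libraries overlapped. Tm7sf2 overlaps Vps51 on the same strand, and the log2 fold change of Vps51 was -0.0015 ± 0.091.

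The last pair of members was lower on the stiff hydrogel. Sc5d measured 293 and 282 CPM on soft and 231 and 237 CPM on stiff, and Dhcr7 143 and 149.96 CPM on soft and 114 and 116 CPM on stiff. WT soft was the highest of the 4 groups for both genes, with no overlap between soft and stiff libraries. The log2 fold changes were -0.30 ± 0.044 (edgeR adjusted p = 2.52e-05) for Sc5d and -0.35 ± 0.061 (edgeR adjusted p = 0.000144) for Dhcr7, both short of the fold threshold.

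**Figure D2:**
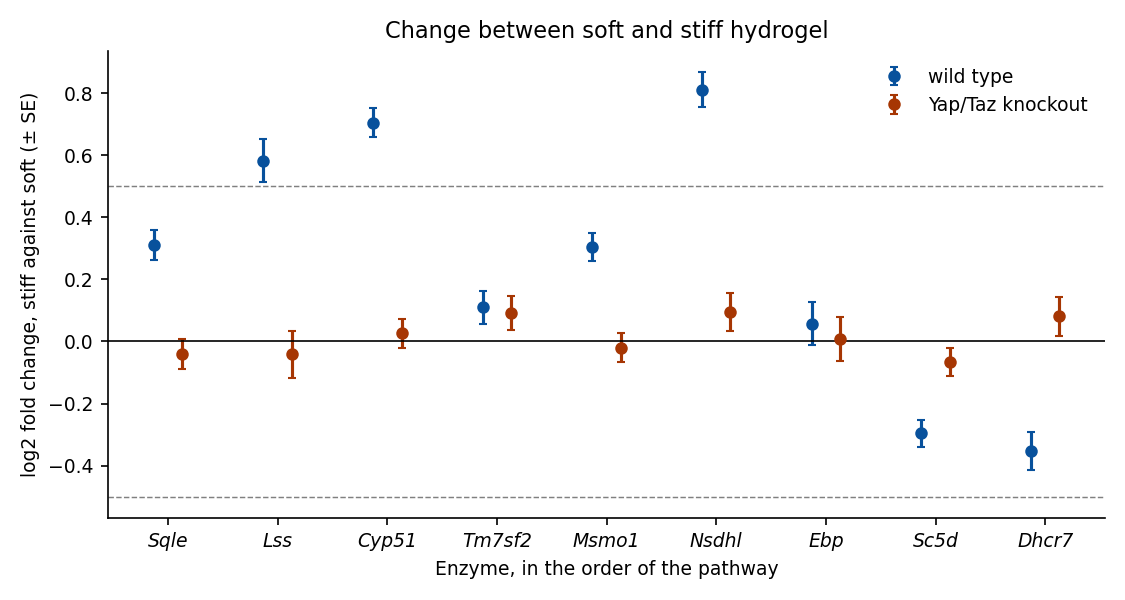
Log2 fold change between stiff and soft hydrogel (y axis; points are estimates of the edgeR fit and bars are ± SE) for the 9 enzymes in pathway order, in WT and in KO hepatocytes; dashed lines mark the fold threshold of 0.5. In WT the values ran from -0.35 (Dhcr7) to 0.81 (Nsdhl), and in KO they stayed between -0.07 and 0.10.

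Ratios within a library, which do not depend on the scaling between libraries, are given as values, with no test. The log2 ratio of Nsdhl to Dhcr7 counts was -1.12 and -1.23 in WT soft, 0.01 and -0.03 in WT stiff, -1.26 and -1.16 in KO soft, and -1.24 and -1.15 in KO stiff. Nsdhl was thus as abundant in counts as Dhcr7 in WT stiff and lay well under it in every other library. The log2 ratio of Cyp51 to Dhcr7 was 1.70 and 1.71 in WT stiff and 0.57 to 0.95 in the other 6 libraries. Sc5d and Dhcr7 kept close to each other, with a log2 ratio of 0.79 to 1.04 over all 8 libraries. As a share of the counts of the 9 genes together, Cyp51 made up 25.8% and 26.0% in WT stiff and 18.1% to 19.8% elsewhere, whereas Dhcr7 made up 7.94% and 7.96% in WT stiff and 10.2% to 12.2% elsewhere.

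**Figure D3:**
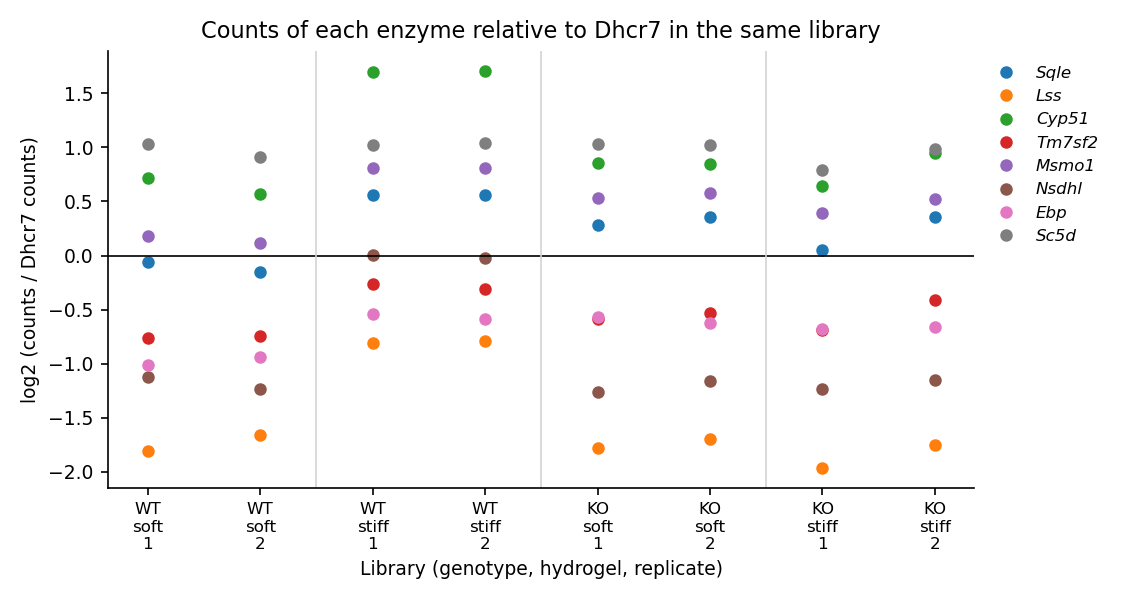
Log2 ratio of the raw counts of each enzyme to those of Dhcr7 in the same library (y axis) for the 8 libraries (x axis); each colour is 1 enzyme and the horizontal line at 0 marks equal counts. In WT stiff, where Dhcr7 itself was lower than in WT soft, Sqle, Lss, Cyp51, Tm7sf2, Msmo1 and Nsdhl lie higher than in the other 6 libraries, and Sc5d stays between 0.79 and 1.04 throughout.

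Promoters of the members were searched for the letters of known regulators of the pathway, to set beside these unequal changes. The RefSeq promoter table (GRCm38.p6, 250 bases before and 50 after each gene start) held 8 of the 9 members, with Sqle not among them, and Dhcr7 had several starts, giving 10 promoters. Shown 5′ to 3′ on the strand of the gene are the bases next to the start of the called genes Lss (chr10:76531505-76531604, plus), Cyp51 (chr5:4104698-4104797, minus) and Nsdhl (chrX:72918421-72918520, plus). Beside them stand Sc5d (chr9:42264301-42264400, minus) and the only Dhcr7 start with a CCAAT (chr7:143830114-143830213, plus), both lower on stiff, and a longer stretch of Msmo1 (chr8:64733579-64733778, minus), the only member with the sterol regulatory element searched for. Capitals mark the NF-Y letters CCAAT, or ATTGG where they read on the other strand, and in Msmo1 also the sterol element.
Lss: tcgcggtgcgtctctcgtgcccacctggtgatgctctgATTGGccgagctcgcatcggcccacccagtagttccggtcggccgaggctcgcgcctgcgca
Cyp51: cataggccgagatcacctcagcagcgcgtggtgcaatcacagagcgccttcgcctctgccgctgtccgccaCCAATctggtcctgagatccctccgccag
Nsdhl: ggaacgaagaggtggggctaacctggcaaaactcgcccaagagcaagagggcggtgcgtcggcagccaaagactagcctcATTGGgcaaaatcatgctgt
Msmo1: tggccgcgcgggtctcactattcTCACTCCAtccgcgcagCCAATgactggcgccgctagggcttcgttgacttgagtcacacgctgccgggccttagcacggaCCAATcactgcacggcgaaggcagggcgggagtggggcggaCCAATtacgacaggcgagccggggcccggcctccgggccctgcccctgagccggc
Sc5d: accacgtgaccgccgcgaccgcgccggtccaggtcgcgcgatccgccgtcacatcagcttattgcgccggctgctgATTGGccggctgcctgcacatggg
Dhcr7: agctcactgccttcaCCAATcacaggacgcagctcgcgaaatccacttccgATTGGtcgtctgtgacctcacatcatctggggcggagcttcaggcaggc

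On both strands, the NF-Y letters CCAAT stood in a promoter of 8 of the 8 members, and in 37.4% of all 32817 promoters of the table (41.0% of genes). The Sp1 letters GGGCGG were also found in 8 of 8 members, against 35.6% of promoters and 38.2% of genes. Both motifs were therefore present in the genes that rose, in Tm7sf2 and Ebp, and in the 2 that were lower. The sterol regulatory element, searched for as TCACNCCA, matched only in Msmo1 (4.36% of promoters and 4.97% of genes). GGAATG, the core letters of TEAD, the DNA-binding partner of Yap and Taz, matched in 0 of 8 members (14.7% and 16.6%). None of the matches in the members overlapped a match of another motif. A match is a description of the letters, and no match says only that these letters are not in this window.

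In KO hepatocytes none of the 9 enzymes was called between the stiff and the soft hydrogel. The count of 0 by edgeR's test stands beside 3 called genes among all tested (0.0210%), and 0 members had an unadjusted p under 0.05, against 1077 of all genes (7.54%). DESeq2, run as an alternative, also called 0 members. The log2 fold changes lay between -0.07 (Sc5d) and 0.10 (Nsdhl), with edgeR adjusted p from 0.691 to 0.987. Their 95% intervals reached from -0.20 to 0.23 at the widest, so changes of the size seen in WT for Nsdhl, Cyp51 and Lss lay outside them. Nsdhl measured 43.6 and 44.9 CPM on soft and 49.4 and 45.1 CPM on stiff, and Cyp51 189 and 180 CPM on soft and 182 and 193 CPM on stiff. The Cyp51 libraries overlapped and those of Nsdhl were separated by a narrow margin, and 38.1% of all tested genes had groups without overlap here. Lss stood at 30.5 and 30.9 CPM on soft and 29.9 and 29.7 CPM on stiff. Dhcr7 had the widest spread, with 105 and 99.97 CPM on soft and 116 and 99.9 CPM on stiff.

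The difference between the stiffness responses of the genotypes was tested as an interaction term, KO minus WT. It was called for 3 members, all lower in KO, against 16.8% of tested genes called in either direction and 8.21% called lower. These were Nsdhl (log2 -0.72 ± 0.083, edgeR adjusted p = 2.86e-06), Cyp51 (-0.68 ± 0.066, edgeR adjusted p = 2.84e-07) and Lss (-0.62 ± 0.10, edgeR adjusted p = 0.000141), the genes that rose in WT. Sqle and Msmo1 had smaller interactions of -0.35 ± 0.067 (edgeR adjusted p = 0.000627) and -0.32 ± 0.065 (edgeR adjusted p = 0.00094). The late enzymes had the opposite sign, as Dhcr7 was at 0.43 ± 0.088 (edgeR adjusted p = 0.000963) and Sc5d at 0.23 ± 0.062 (edgeR adjusted p = 0.00912). By adjusted p alone, 7 members passed, against 29.4% of tested genes. Dhcr7 crossed the fold threshold at 0.53 without KO stiff replicate 2, and the adjusted p of Sc5d rose to 0.0738 without WT stiff replicate 1 and to 0.0717 without KO soft replicate 2. Tm7sf2 (-0.02, 95% interval -0.18 to 0.14) and Ebp (-0.05, -0.26 to 0.16) did not pass.

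On the soft hydrogel, all 9 transcripts had a lower estimate in KO than in WT, and 3 were called: Nsdhl, Lss and Dhcr7. Of all tested genes, 6.67% were called in either direction and 4.65% called lower, and the median log2 fold change was -0.33 over the members and -0.00031 over all genes. From the CPM values above, the KO libraries of these genes lay under both WT libraries in each case, while groups did not overlap in 56.2% of all tested genes. Nsdhl differed by -0.55 ± 0.060 (log2, edgeR adjusted p = 1.67e-06), Lss by -0.52 ± 0.073 (edgeR adjusted p = 4.02e-05) and Dhcr7 by -0.52 ± 0.062 (edgeR adjusted p = 5.43e-06). All these calls sit close to the fold threshold. With scaling by library size alone, which moved the median of all genes to 0.054, the values were -0.50, -0.46 and -0.46 and none was called. Without WT soft replicate 2, Lss (-0.41) and Dhcr7 (-0.49) lost the call, as did Dhcr7 (-0.49) without KO soft replicate 2, while Sc5d gained it at -0.50 without KO soft replicate 1.

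Sc5d, at 214 and 204 CPM in KO soft, was lower by -0.46 ± 0.044 (log2, edgeR adjusted p = 3.55e-07), and Tm7sf2, at 69.6 and 68.9 CPM, by -0.33 ± 0.053 (edgeR adjusted p = 0.000178). Cyp51 differed by -0.32 ± 0.047 (edgeR adjusted p = 6.77e-05). These 3 passed the adjusted p without reaching the fold threshold. In all, 6 members passed it, each lower in KO, against 1556 of 14279 tested genes lower and 18.4% in either direction. Sqle, with 127 and 128 CPM, Msmo1, with 151 and 149.5 CPM, and Ebp, with 70.4 and 64.9 CPM, did not pass, at -0.09 (edgeR adjusted p = 0.226), -0.11 (edgeR adjusted p = 0.118) and -0.14 (edgeR adjusted p = 0.193).

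On the stiff hydrogel, Nsdhl, Lss and Cyp51 were called lower in KO, 3 members against 28.7% of tested genes in either direction and 15.0% called lower. Nsdhl differed by -1.27 ± 0.058 (log2, edgeR adjusted p = 2.19e-12), a level 0.415 times that of WT. Lss differed by -1.14 ± 0.072 (edgeR adjusted p = 2.15e-10) and Cyp51 by -0.995 ± 0.047 (edgeR adjusted p = 2.9e-12). All KO stiff libraries of these genes lay at or under 193 (Cyp51), 49.4 (Nsdhl) and 29.9 CPM (Lss), far below the WT stiff libraries, and 74.5% of all tested genes had groups without overlap. The overlapping gene Akap9 was higher in KO here, at 0.64 ± 0.059.

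The other members differed less on stiff. Sqle measured 121 and 128 CPM and Msmo1 153 and 144 CPM in KO stiff, for log2 differences of -0.44 ± 0.048 (edgeR adjusted p = 3.65e-07) and -0.43 ± 0.046 (edgeR adjusted p = 2.87e-07). Tm7sf2, at 72.4 and 75.3 CPM, differed by -0.35 ± 0.053 (edgeR adjusted p = 2.61e-05), near its value on soft, and Sc5d, at 201 and 198 CPM, by -0.23 ± 0.044 (edgeR adjusted p = 0.000278). Ebp, at 72.9 and 63.3 CPM, gave -0.19 ± 0.070 (edgeR adjusted p = 0.0321), with the adjusted p between 0.00314 and 0.294 over the alternatives, the highest without KO stiff replicate 2. Dhcr7 did not pass, at -0.08 (95% interval -0.21 to 0.047, edgeR adjusted p = 0.28), and had an adjusted p of 0.0134 without KO stiff replicate 1. By adjusted p alone 8 members were lower, against 3669 of 14279 tested genes lower and 51.1% in either direction.

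**Figure D4:**
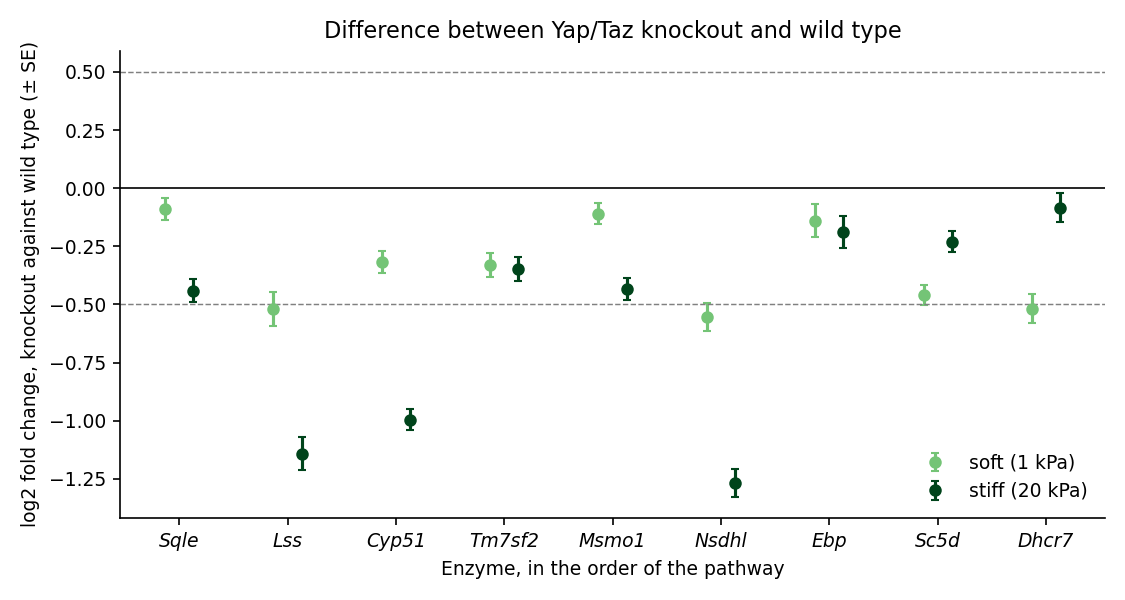
Log2 difference between KO and WT (y axis; points are estimates of the edgeR fit and bars are ± SE) for the 9 enzymes in pathway order on each hydrogel; dashed lines mark the fold threshold of 0.5. Lss, Cyp51 and Nsdhl lie between -1.27 and -0.995 on stiff, whereas Dhcr7 lies at -0.52 on soft and -0.08 on stiff.

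Of Hsd17b7, Lbr and Erg28, other genes of the same stretch, 2 rose in WT on stiff. Hsd17b7, the ketoreductase that acts after Nsdhl, went from 32.4 and 33.8 CPM to 67.4 and 69.6 CPM, a log2 fold change of 1.05 ± 0.066 (edgeR adjusted p = 3.97e-10). Lbr, which shares its step with Tm7sf2, rose by 0.54 ± 0.098 (edgeR adjusted p = 0.000238). Without WT stiff replicate 2 only 1 of the 3 was called. Erg28, a scaffold for the demethylating enzymes, was at 0.41 ± 0.067 (edgeR adjusted p = 8.54e-05), below the fold threshold. The interaction was called lower for Hsd17b7 (-1.01) and Lbr (-0.54), with 1 called without WT stiff replicate 2 or KO stiff replicate 1. None of the 3 was called by edgeR's test between KO and WT on soft, with 2 at an unadjusted p under 0.05, against 29.6% of all tested genes, and Hsd17b7 (-1.40) and Lbr (-0.72) were called lower on stiff. In KO, 0 of the 3 were called by edgeR's test between stiff and soft, with 0 at an unadjusted p under 0.05. Of all tested genes, 10.0% were called higher in WT on stiff, 8.21% lower in the interaction and 15.0% lower in KO on stiff.

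Upstream of squalene, 6 of 8 enzymes of the mevalonate pathway examined rose in WT on stiff and 0 fell, with a median log2 fold change of 0.70. Of all tested genes, 10.0% were called higher there. Hmgcs1, which condenses acetyl units, rose by 0.91 ± 0.043, Mvd, the decarboxylase, by 0.79 ± 0.12, Mvk, the first kinase, by 0.71 ± 0.086, Idi1, the isomerase, by 0.70 ± 0.066 and Acat2, the thiolase, by 0.67 ± 0.064, with edgeR adjusted p from 8.18e-12 to 2.31e-05. Fdps, which joins the isoprene units, rose most, by 1.497 ± 0.18 (edgeR adjusted p = 2.42e-06), from a low level of 3.97 and 3.999 CPM to 11.6 and 10.9 CPM. Fdft1, squalene synthase, stood at 0.43 ± 0.048 and Pmvk, the second kinase, at 0.00 ± 0.074. In KO 0 of the 8 were called by edgeR's test between stiff and soft. At an unadjusted p under 0.05 by that test stood 2 of the 8, against 7.54% of all tested genes. The interaction was called lower for 5, against 8.21% of tested genes. Between KO and WT, 4 were called lower on soft (Fdps -1.34, Mvd -0.87, Pmvk -0.83 and Idi1 -0.64) and all 8 on stiff. The shares of all tested genes called lower were 4.65% on soft and 15.0% on stiff. Several of these values are uncertain because of sequence shared with other genes: of the exonic windows, 43.0% in Acat2, 29.7% in Idi1, 27.4% in Fdft1, which lies against the abundant Ctsb, 12.8% in Hmgcs1, 10.9% in Lbr and 10.4% in Fdps occurred elsewhere. Ctsb, on the other strand, had a mean of 27937 counts per library. Its log2 fold change was -0.29 ± 0.030 in WT on stiff and 0.42 ± 0.030 between KO and WT on stiff. Among the members the share of windows found elsewhere was 2.66% in Cyp51, 2.29% in Lss, 0.34% in Msmo1 and 0 in the others.

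**Figure D5:**
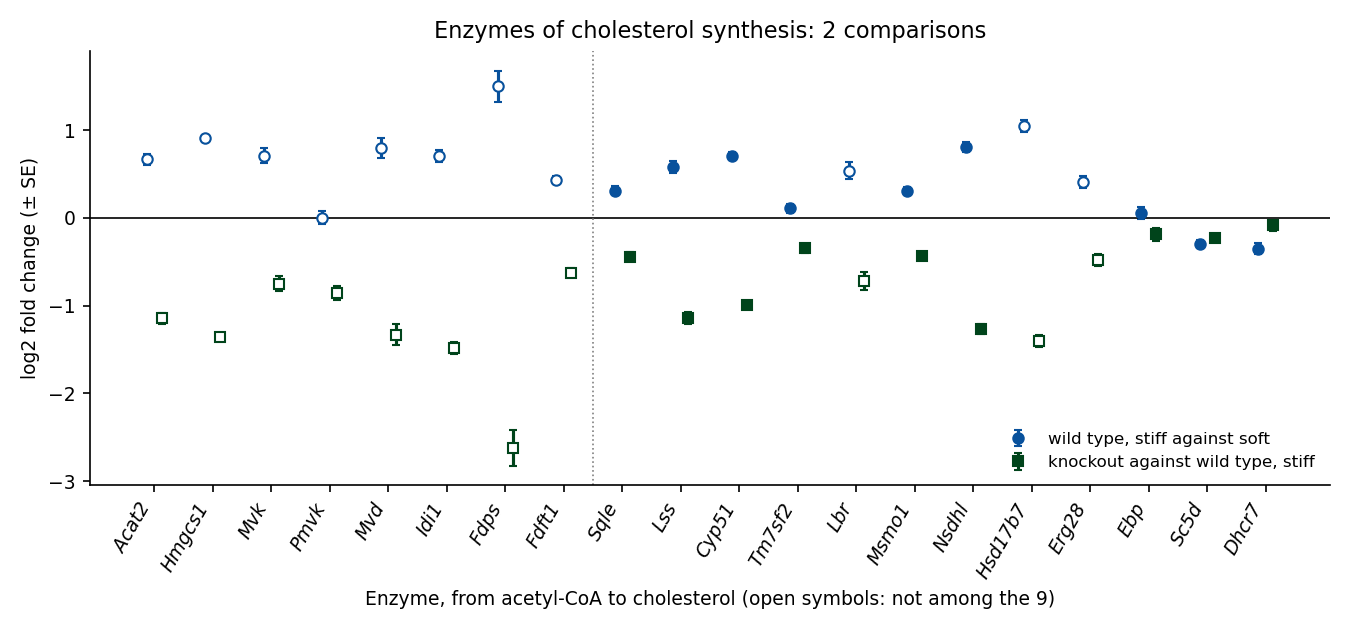
Log2 fold change of WT stiff against soft (circles) and of KO against WT on stiff (squares), each ± SE of the edgeR fit (y axis), for 20 enzymes ordered from acetyl-CoA to cholesterol (x axis); filled symbols are the 9 members, open symbols the others, and the dotted line marks squalene. Circles are highest at Fdps, Hsd17b7, Hmgcs1 and Nsdhl and lie below 0 only at Sc5d and Dhcr7, and every square lies below 0.

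Of 9 genes that sense sterols or act on the response to them, 0 rose in WT on stiff and 3 fell, of which 2 were called with DESeq2 and without WT soft replicate 2, WT stiff replicate 1 or WT stiff replicate 2, where Mylip was lost. The 3 were Insig2, which retains the SREBP complex (-0.68 ± 0.045, edgeR adjusted p = 8.9e-10), Srebf1, which encodes SREBP1 (-0.67 ± 0.055, edgeR adjusted p = 1.83e-08), and Mylip, a ubiquitin ligase gene (-1.10 ± 0.39, edgeR adjusted p = 0.0295), which was under 3 CPM in every library. Srebf2, which encodes SREBP2, had the highest value of the 9, at 0.35 ± 0.050 (edgeR adjusted p = 1.46e-05), below the fold threshold. The interaction was called for 2, Srebf1 (0.79) and Insig2 (0.54), and for 1 without WT soft replicate 1. Between KO and WT on soft, Insig1, which also retains the SREBP complex (-1.16), and Srebf1 (-0.55) were called lower, and 1 of the 2 calls was lost without WT soft replicate 2 and with scaling by library size alone. On stiff, Insig1 (-1.41) was called lower and Mylip (1.54) and Insig2 (0.67) higher. Over all tested genes, the share called in either direction was 19.3% in WT on stiff, with 1322 of 14279 lower, and 16.8% in the interaction. Between KO and WT it was 6.67% on soft and 28.7% on stiff. In KO 0 of the 9 were called by edgeR's test between stiff and soft. At an unadjusted p under 0.05 by that test stood 4 of the 9, against 7.54% of all tested genes.

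Cyp51, Msmo1, Sc5d and Sqle take electrons from a reductase or from cytochrome b5, and Dhcr7 from a reductase. Of the 4 donor genes Por, Cyb5r3, Cyb5a and Cyb5b, 0 were called by edgeR's test in any of the 5 comparisons. In WT on stiff they ran from -0.36 ± 0.046 for Por, the P450 reductase, to 0.17 ± 0.044 for Cyb5b, and 4 had an unadjusted p under 0.05, against 48.0% of all tested genes. At the same threshold stood 0 in KO (all genes 7.54%), 3 in the interaction (39.0%), and, between KO and WT, 1 on soft (29.6%) and 3 on stiff (56.1%). Of 5 genes for the turnover of sterol enzymes, 1 was called lower in WT on stiff, against 1322 of 14279 tested genes. This was the ubiquitin ligase gene Rnf145 (-0.62 ± 0.090, edgeR adjusted p = 1.83e-05), whose interaction was called at 0.75. That interaction count of 1 became 2 without WT soft replicate 1, WT stiff replicate 2, KO soft replicate 2 or KO stiff replicate 2. All 5 estimates in WT were negative, and by edgeR's adjusted p alone 4 were lower, against 20.0% of tested genes. The highest of the 5 in WT was Tmem97 at -0.08 (edgeR adjusted p = 0.274), with 17.8% of its exonic windows also found in another gene. On stiff, all 5 estimates were higher in KO than in WT. By edgeR's test 0 were called in KO (1 at an unadjusted p under 0.05) and between KO and WT on soft (2) and on stiff (5), where 1 was called without KO stiff replicate 2.

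Marker levels moved with the groups. The summed level of 7 hepatocyte markers was 87892 to 88577 CPM in WT soft, 90886 to 92445 CPM in WT stiff and 60713 to 61365 CPM in KO. Albumin made up most of it. Among the 7, Hnf4a, a hepatocyte transcription factor, and Asgr1, a subunit of the asialoglycoprotein receptor, were called lower in WT on stiff (-0.98 and -0.82, edgeR adjusted p = 2.44e-12 and 1.71e-10). On stiff both were called higher in KO than in WT (1.17 and 0.80), where Alb (-0.66) and Cps1 (-0.68) were called lower. The 7 stellate cell markers summed to 32.3 CPM in WT soft, 20.5 to 22.6 in WT stiff and 43.8 to 49.9 in KO, the 6 endothelial markers to 51.9 to 57.3, 36.7 to 37.1 and 69.0 to 73.9, and the 6 Kupffer cell markers to 59.0 to 59.4, 41.9 to 46.8 and 77.1 to 81.7. Of the stellate cell markers, Col1a1 went against the sum. It was called higher in WT on stiff (0.78, edgeR adjusted p = 0.00368) and lower in KO than in WT on stiff (-0.62, edgeR adjusted p = 0.0121). Most of the Kupffer cell sum came from Cd68, at 46.0 and 46.4 CPM in WT soft. The 5 cholangiocyte markers summed to 548 to 584, 599 to 602 and 320 to 348 CPM, most of it from Spp1. Krt19, a keratin of bile duct cells, was called higher in WT on stiff (3.30 ± 0.20, edgeR adjusted p = 1.64e-10), from 1.81 and 2.44 CPM to 21.0 and 20.1 CPM, and lower in KO than in WT on stiff (-4.87 ± 0.23, edgeR adjusted p = 4.09e-12). The other 3 tested cholangiocyte markers were not called in WT on stiff: Sox9 (0.06), Spp1 (0.04) and Epcam (-0.37). Between KO and WT on stiff, Spp1 (-0.90) was called lower as well, and Sox9 and Epcam were not called. No marker was at 0 in all libraries, although Lrat and Krt7 had no more than 4 counts in any. Their part in the results was not tested, and fewer cells of a type and less RNA per cell cannot be told apart in bulk libraries.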

How the data were processed

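The table of raw counts was deposited by the authors, with 1 column of whole counts per library and no normalization, together with the gene length and position. The authors aligned paired-end reads of 150 bases with HISAT2 and counted them with featureCounts. The submitters' processing notes list HISAT2 2.0.5, DESeq2 1.20.0, edgeR 3.22.5, GATK 4.1.4.1 and the build mm9. How strand and reads matching several genes entered the counting is not given in the sources used here. All 8 sample columns were used.

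The tests were run with edgeR 4.0.16 and limma 3.58.1 under R 4.3.3. Genes were filtered by filterByExpr by group (14279 of 56748 kept), scaled by TMM (factors 0.9782 to 1.023) and fitted with glmQLFit in 1 model of the 4 groups, with 4 residual degrees of freedom, 13.3 prior degrees of freedom and a common biological coefficient of variation of 0.0542. The 5 comparisons used glmQLFTest with Benjamini-Hochberg adjustment over all genes tested, and a call needed an adjusted p under 0.05 with a log2 fold change above 0.5 in size. The same fit gave the SE and 95% intervals. Replicates differed beyond sampling noise in every group, the ratio of chi-square to degrees of freedom being 2.62 to 5.45.

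Up to 19 alternatives per comparison were run, including DESeq2 1.42.0, other scalings and filters, each library left out, and the replicate number as a block. The scripts were tested on simulated data. Promoters were searched with Python 3.11.15, pandas 2.3.3, and figures drawn with matplotlib 3.10.9. Shared sequence was the share of windows of 64 bases in the exons of a gene that also occurred in another gene of GENCODE M21.

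The text names all 9 members, Yap1 and Wwtr1, and from each list of pathway genes those with the highest and lowest log2 fold change in WT and those called in any comparison. Some genes of the lists first written down are not reported here and were left out of their counts. Akap9, Vps51 and Ctsb were named after their values were seen because they overlap a gene of the lists. Xist and the Y-linked genes were also chosen after their values were seen. The members and lists were chosen with earlier results of these data known.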

Additional observations from a re-analysis of the deposited data

Results flagged for a closer look

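The stiffness response differed between genotypes for 3 members, by the interaction term of the edgeR fit with Benjamini-Hochberg adjustment. The response was lower in KO by -0.72 ± 0.083 (SE, log2) for Nsdhl, by -0.68 ± 0.066 for Cyp51 and by -0.62 ± 0.10 for Lss, with adjusted p of 2.86e-06, 2.84e-07 and 0.000141. The 3 remained called in each leave-one-out fit. Groups of 2 libraries are too small for a check of single outlying samples.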

How the results depend on the processing

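All values here refer to the 9 members and the settings run. The count of called members was 3 in WT stiff against soft, 0 in KO stiff against soft, and 3 each in the interaction and in KO against WT on soft and on stiff. With the adjusted p alone these became 7, 0, 7, 6 and 8, and with a log2 fold change above 1 in size the counts for WT, the interaction and KO against WT on soft became 0 and that on stiff 2. Scaling by library size alone gave 0 on soft. It moved the median log2 fold change of all tested genes there from -0.00031 to 0.054, and the 3 calls sat close to the fold threshold. With 1 library left out the counts ranged from 2 to 3 (WT), 0 to 0 (KO), 3 to 4 (interaction), 1 to 4 (KO against WT, soft) and 3 to 3 (stiff), the lowest count of 1 being without WT soft replicate 2. A group left with 1 library is assumed to vary like the others.

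The sign turned only for estimates near 0, none of which passed the test in the fit reported or where the sign turned. In KO stiff against soft, Ebp was -0.000451 on the 4 libraries compared and -0.00463 without the filter on low counts. With 1 library left out, the KO estimates ranged from -0.101 to 0.0979 for Ebp (also -0.000263 without WT soft replicate 1, -0.000874 without WT soft replicate 2 and -0.0527 without KO soft replicate 2), from -0.0246 to 0.0639 for Cyp51 (-0.0123 without KO soft replicate 2), from -0.0376 to 0.178 for Dhcr7 and from -0.0670 to 0.0136 for Msmo1. Likewise, Ebp in WT ranged from -0.00760 to 0.130, the interaction of Tm7sf2 from -0.0705 to 0.00978 (0.00871 without KO stiff replicate 1), that of Ebp from -0.158 to 0.0401 (0.00734 without WT soft replicate 1 and 0.00856 without KO soft replicate 1), and Dhcr7 between KO and WT on stiff from -0.204 to 0.0119.

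The replicate numbers showed no sign of pairing: the correlation of same-numbered deviations over all tested genes lay between -0.101 and 0.0424. Such a check cannot exclude a shared mouse or culture, as deviations of genes with few counts are mostly sampling noise. The fit with the replicate block gave 3, 0, 3, 3 and 3 called members. With 2 libraries a group the spread rests on the pooled fit, and the intervals of Tm7sf2 and Ebp limit what could be seen in them.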

Other observations

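Over the 8 libraries, the log2 CPM of Sqle and Cyp51 had the highest Pearson correlation of any pair of members (0.99), Sc5d and Dhcr7 had 0.92, and Sqle and Dhcr7 the lowest (0.13). These are descriptions over libraries that the genes share. Other genes with a mean of at least 10 CPM, 8588 in all, were ranked by the correlation of their log2 CPM with the mean z-score of the members' log2 CPM. The first 5 were Serpina1b (0.998), Ero1a (0.998), Fads1 (0.998), Gpc4 (0.997) and Ifit1 (0.996). Fads1, a fatty acid desaturase, measured 377 and 396 CPM in WT soft, 459.6 and 461 CPM in WT stiff, 292 and 280 CPM in KO soft, and 290.4 and 283 CPM in KO stiff. Its KO libraries lay below all WT libraries, as did those of Ifit1. Both genes were chosen for following the members, whose mean z-score was lower in every KO library, so this is no separate result. Ifit1, an interferon-induced gene, measured 25.2 and 27.2 CPM in WT soft and 40.9 and 43.7 CPM in WT stiff, against 9.39 to 11.5 CPM in the KO libraries.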
